A study of Mus musculus with 6 samples.

Results

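NF-kappaB is a family of dimeric transcription factors that switch on inflammatory, survival and adhesion genes. In resting cells inhibitor-of-kappaB (IkB) proteins hold most dimers in the cytoplasm, and an IkB kinase (IKK) complex releases them by marking the inhibitor for destruction. Several inhibitors are themselves NF-kappaB targets, so that the pathway limits its own activity, and the targets ICAM-1 and VCAM-1 let leukocytes stick to the vessel wall, in smooth muscle as well as endothelium.

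The 10 genes described here are 4 subunit genes (Nfkb1, Nfkb2, Rela and Relb), 4 inhibitor genes (Nfkbia, Nfkbie, Nfkbiz and Tnfaip3) and 2 adhesion targets (Icam1 and Vcam1), taken by symbol from the 21785 genes of the deposited table. Each had 1 row, and all 10 were among the 21743 genes that passed the filter on low values. RNA was sequenced from pulmonary arterial smooth muscle cells (PASMCs) grown out of arteries of C57BL/6 mouse lungs that had been filled with iron particles and collected with a magnet. All cultures had spent 48 h in medium without supplements. The 3 stimulated samples received bone morphogenetic protein 9 (BMP9) at 1 ng/mL and BMP10 at 5 ng/mL for 6 h, and the 3 control samples did not; no sample was genetically altered, and the animals' age is not given in the sources used here. Whether samples of a group are separate cultures or animals is not stated in the labels; the p-values thus cover the spread among these samples, which may be technical.

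None of 12 smooth muscle markers was at 0 in any library. The same held for the endothelial, the fibroblast, and the epithelial and mesothelial markers below, so presence alone does not tell these cell types apart. The summed normalized count of the 12 smooth muscle markers was 147783 to 268199 in stimulated samples, against 77444 to 99658 in control samples, led by Acta2. The cultures also held RNA of other cell types. The summed count of 19 macrophage and leukocyte markers was 164408 to 250732 in stimulated samples and 112630 to 195524 in control samples, led by Lyz2. The 13 fibroblast markers had the highest sum, at 349832 to 623121 in stimulated samples and 437374 to 591988 in control samples, led by Col1a1. It was above the smooth muscle sum in every library. Each sum leans on its most abundant genes and the lists differ, so their order does not rank the cell types by share. That of 13 epithelial and mesothelial markers was 3581 to 38735 in stimulated samples and 9321 to 39374 in control samples, highest in replicate 2 of both groups. That of 20 endothelial markers was 14647 to 57418 in stimulated samples and 15913 to 56411 in control samples, and each of the 20 was highest in replicate 2 of both groups. Levels therefore belong to whole cultures, in which fewer cells of a type and less RNA per cell cannot be told apart. An estimated 23300000 to 54400000 reads per library lie behind the values.

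Promoter stretches of some of the 10 genes are shown to set beside their values; binding of NF-kappaB to them was not measured. RefSeq promoter windows (GRCm38.p6, the sequence of mm10, from 250 bases before to 50 after a start) were at hand for 6 of the 10 genes: Nfkb2, Rela, Nfkbia, Nfkbie, Tnfaip3 and Icam1. Nfkb1, Relb, Nfkbiz and Vcam1 had no window and were not searched. The kappaB consensus was searched on both strands as a strict pattern that starts with GGG and ends with CC. It was found in windows of 4 of these 6 (Nfkb2, Nfkbia, Nfkbie and Tnfaip3), while 9.55% of the 27025 genes in the table had it in some window. Sites that depart from the pattern were not counted, so a gene without a match, such as Icam1, may still hold a kappaB-type site. The windows of Tnfaip3, Nfkbia and Icam1 also shared, on one strand or the other, a run of 10 bases, GGAATTTCCA, the longest they had in common. It overlaps the kappaB consensus in Nfkbia and occurs in 0.0822% of all 32851 windows; since it was picked for being shared, its rarity is no test. In the lines that follow, capitals mark the kappaB consensus and the shared run. In the Nfkb2 line they mark the plus-strand match only; a minus-strand match overlaps it and ends 1 base further on. The Nfkbia line (minus strand, chr12:55492648-55492897) and the Icam1 line (plus strand, chr9:21015690-21015939) give the 250 bases before the start. The other lines give 30 bases each, for Tnfaip3 (minus strand, chr10:19015408-19015437), Nfkb2 (plus strand, chr19:46304688-46304717) and Nfkbie (plus strand, chr17:45555584-45555613). All 30 bases of the Nfkb2 line lie in annotated exons of Nfkb2. In the windows behind the Nfkb2 and Tnfaip3 lines, 250 and 110 of the 250 bases before the start lie in annotated exons of the gene.
Nfkbia: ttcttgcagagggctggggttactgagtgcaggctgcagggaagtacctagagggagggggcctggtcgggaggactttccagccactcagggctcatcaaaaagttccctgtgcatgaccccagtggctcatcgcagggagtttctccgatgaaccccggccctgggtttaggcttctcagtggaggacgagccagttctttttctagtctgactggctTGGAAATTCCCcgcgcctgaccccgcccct
Icam1: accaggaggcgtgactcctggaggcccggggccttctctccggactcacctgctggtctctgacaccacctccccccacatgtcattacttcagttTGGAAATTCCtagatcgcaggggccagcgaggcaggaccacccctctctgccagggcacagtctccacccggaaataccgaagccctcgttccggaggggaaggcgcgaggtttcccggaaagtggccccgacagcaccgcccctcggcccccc
Tnfaip3: actGGAATTTCCAtcGGAAATCCCCctgtt
Nfkb2: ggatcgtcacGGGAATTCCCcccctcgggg
Nfkbie: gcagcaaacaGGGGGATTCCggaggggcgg

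Stimulation changed 2 of the 10 genes past the threshold, in opposite directions: the feedback inhibitor gene Tnfaip3 rose and the adhesion gene Vcam1 fell. This compares with 13.4% of all genes tested (8.61% higher and 4.75% lower), called by limma at an adjusted p under 0.05 over all genes. The median log2 change was 0.0018 over the 10 genes and -0.03 over all genes tested. Groups did not overlap for the same 2 genes, against 33.2% of all genes. Changes are given as stimulated minus control on the log2(value + 1) scale with their SE, levels are normalized read counts as mean ± SD (n = 3 per group), and p-values are adjusted by the Benjamini-Hochberg method. The share of higher and lower calls depends on scaling: with equal library totals, 1135 genes were called higher and 2265 lower, against 1873 and 1032 as deposited, and the median change of all genes moved to -0.20. Deposited values summed to 30786695 to 31903795 in stimulated and 27295973 to 28283597 in control libraries. Equal totals thus scale stimulated values down relative to control values. Median-ratio (RLE) factors of the deposited values were 1.005 to 1.008 in all 6 libraries.

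**Figure D1:**
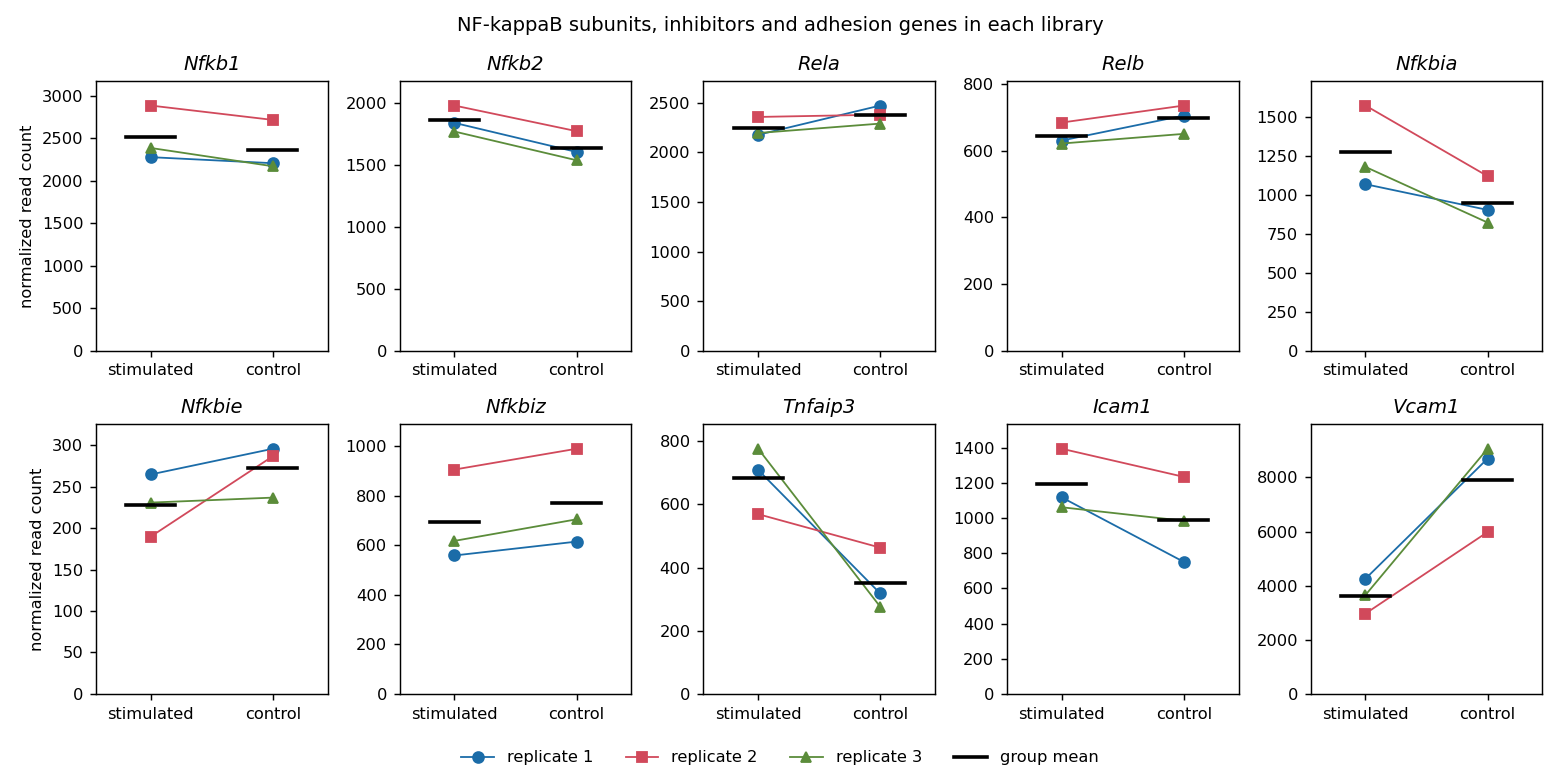
Normalized read counts of the 10 genes (y axes, each from 0) in stimulated and control libraries, with lines joining libraries of the same replicate number and black bars at the group means. Vcam1 is at 4256 or less in every stimulated library and at 5980 or more in every control library, and Tnfaip3 is at 569 or more in every stimulated library and at 463 or less in every control library.

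Among the subunit genes, Rela encodes the main transactivating subunit of the canonical pathway and Nfkb1 the precursor of its usual partner. Rela was at 2178, 2358 and 2196 in stimulated replicates 1, 2 and 3, against 2473, 2381 and 2291 in control replicates 1, 2 and 3. Nfkb1 was at 2276, 2883 and 2384 in stimulated samples, against 2205, 2714 and 2169 in control samples. The groups overlapped for both genes, and Nfkb1 was highest in replicate 2 of each group. The change of Rela was -0.09 ± 0.08 (95% interval -0.27 to 0.10, limma adjusted p = 0.52), and that of Nfkb1 was 0.09 ± 0.13 (95% interval -0.22 to 0.40, limma adjusted p = 0.704).

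Nfkb2 and Relb encode the partners of the non-canonical pathway, in which the Nfkb2 precursor is cut to release an active subunit that pairs with RelB. Nfkb2 was at 1841, 1981 and 1771 in stimulated samples, against 1606, 1774 and 1539 in control samples, so that control replicate 2 lay just above stimulated replicate 3. Relb was at 631, 685 and 622 in stimulated samples, against 706, 736 and 651 in control samples, with overlapping groups. Neither passed the test, with changes of 0.19 ± 0.09 for Nfkb2 (95% interval -0.03 to 0.40, limma adjusted p = 0.233) and -0.11 ± 0.10 for Relb (95% interval -0.34 to 0.12, limma adjusted p = 0.516). Genes on the other strand overlap 18.1% of the exonic sequence of Nfkb2, so its level is uncertain if counting ignored strand.

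Ratios of genes within a library do not depend on how libraries were scaled. The ratio of the Nfkb2 count to the Relb count was 2.92, 2.89 and 2.85 in stimulated samples, against 2.27, 2.41 and 2.36 in control samples, without overlap. An exact two-sided permutation test over the 20 arrangements of the samples gave p = 0.1, the smallest that 3 against 3 samples allow (0.2 adjusted over the 4 ratios compared). The Nfkb1 to Rela ratio was 1.04 to 1.22 in stimulated samples and 0.892 to 1.14 in control samples, which overlap (exact two-sided permutation p = 0.3). That of Tnfaip3 to Nfkbia was 0.361 to 0.663 in stimulated and 0.335 to 0.413 in control samples, also overlapping (exact two-sided permutation p = 0.2). The pairs were chosen with values of these genes known.

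Of the inhibitor genes, Tnfaip3 passed the test and the other 3 did not. Tnfaip3 encodes a ubiquitin-editing enzyme that shuts down signalling upstream of IKK and is itself a rapid NF-kappaB target. Its level was 709, 569 and 776 in stimulated replicates 1, 2 and 3, against 318, 463 and 276 in control replicates 1, 2 and 3. All stimulated samples were above all control samples, but replicate 2 stood between the rest in both groups: it was the lowest stimulated and the highest control library. Tnfaip3 averaged 685 ± 106 in stimulated samples and 352 ± 98.1 in control samples, which differ by 0.98 ± 0.22 on the log2 scale (adjusted p = 0.0278 by limma). The change within same-numbered pairs was 1.15, 0.30 and 1.49 on the log2 scale for pairs 1, 2 and 3. It was 1.32 without both replicate 2 libraries (limma adjusted p = 0.0126). The call was lost by limma with equal library totals (0.81, adjusted p = 0.055) and without stimulated replicate 1 (0.0759), stimulated replicate 3 (0.12), control replicate 1 (0.0999) or control replicate 3 (0.0944), with log2 changes of 0.82 or above in these 4 fits.

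Nfkbia encodes IkB-alpha, the inhibitor that is destroyed on activation and then resynthesized from an NF-kappaB-driven promoter. It was at 1069, 1574 and 1180 in stimulated samples, against 904, 1121 and 823 in control samples. Each stimulated library was above the control library of the same number, while stimulated replicate 1 lay below control replicate 2, so the groups overlapped. The change was 0.42 ± 0.18 (95% interval 0.00 to 0.84), which did not pass limma (adjusted p = 0.176). The labels do not say that a replicate number marks a pair. With the number taken as a block Nfkbia was called (limma adjusted p = 0.0127), 1 of 3 of the 10 genes called in that fit against 26.8% of all genes tested. With equal library totals together with the block it was not called (0.24, limma adjusted p = 0.0537). That fit called 5 of the 10 genes, against 32% of all genes, and equal totals without the block called 1, Vcam1, against 15.7%.

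Nfkbie encodes IkB-epsilon, a cytoplasmic inhibitor, and Nfkbiz encodes IkB-zeta, an atypical nuclear member of the family that acts on transcription in the nucleus. Nfkbie was at 265, 190 and 231 in stimulated samples, against 296, 287 and 237 in control samples. Nfkbiz was at 559, 906 and 618 in stimulated samples, against 615, 990 and 705 in control samples. Both overlapped between groups, and Nfkbiz differed more between replicate 2 and the others (1.54-fold in stimulated and 1.5-fold in control samples) than between groups. The changes were -0.26 ± 0.17 for Nfkbie (95% interval -0.66 to 0.14, limma adjusted p = 0.363) and -0.15 ± 0.24 for Nfkbiz (95% interval -0.71 to 0.41, limma adjusted p = 0.726).

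Of the adhesion targets, Vcam1 fell and Icam1 did not pass the test. Vcam1, whose protein binds the leukocyte integrin of the Itga4 and Itgb1 chains, was at 4256, 2969 and 3655 in stimulated replicates 1, 2 and 3, against 8694, 5980 and 9059 in control replicates 1, 2 and 3. Every stimulated library was below every control library, and replicate 2 was lowest in both groups. Vcam1 averaged 3627 ± 644 in stimulated samples and 7911 ± 1682 in control samples, and fell by 1.12 ± 0.19 on the log2 scale (limma adjusted p = 0.0129; 0.00028 with the replicate block). Same-numbered pairs gave -1.03, -1.01 and -1.31. Leaving out stimulated replicate 3, control replicate 1 or control replicate 3 took the limma adjusted p to 0.0661, 0.0576 and 0.058, past the threshold, with log2 changes between -1.13 and -1.01.

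Icam1, whose protein binds the beta-2 leukocyte integrins, was at 1118, 1395 and 1062 in stimulated samples, against 751, 1235 and 985 in control samples. Each stimulated library was above the control library of its number, and the groups overlapped. The change was 0.29 ± 0.20 (95% interval -0.18 to 0.75), and it did not pass limma (adjusted p = 0.392; 0.0915 with the replicate block). Genes on the other strand overlap 11.7% of the exonic sequence of Icam1, so its level is uncertain if counting ignored strand. The ratio of Vcam1 to Icam1 was 3.81, 2.13 and 3.44 in stimulated samples, against 11.6, 4.84 and 9.20 in control samples, without overlap (exact two-sided permutation p = 0.1, the smallest this design allows; 0.2 adjusted over the 4 ratios).

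**Figure D2:**
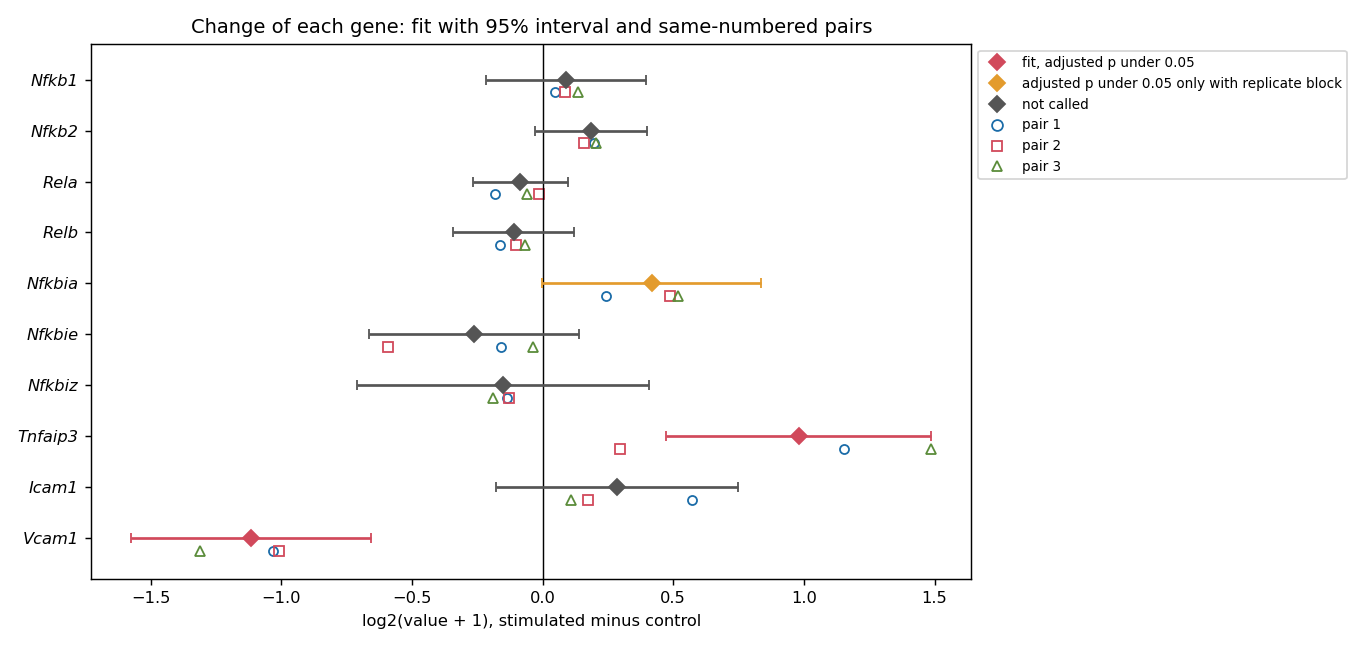
Log2 change of each gene (x axis, stimulated minus control on the log2(value + 1) scale; diamonds with 95% intervals from limma) with the difference in each same-numbered pair below it as open symbols. The intervals of Tnfaip3 (0.47 to 1.49) and Vcam1 (-1.57 to -0.66) lie wholly on 1 side of 0, the other 8 include 0, and each of the 10 genes has all 3 pairs on one side of 0.

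Pairs with the same replicate number differed in the same direction in all 3 cases for each of the 10 genes, upward for Nfkb1, Nfkb2, Nfkbia, Tnfaip3 and Icam1 and downward for Rela, Relb, Nfkbie, Nfkbiz and Vcam1. Of all genes tested, 55.4% had 3 pairs of 1 sign, and of those with a mean of at least 50, 69.3% did. With equal library totals the count was 8 of the 10 genes, against 61.4% of all genes, and Nfkb1 then had its pairs downward. Of these 10 genes, 8 did not pass the test.

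The genes also varied with replicate number, apart from stimulation. In both groups, replicate 2 was above the mean of replicates 1 and 3 for 6 of the 10 genes (Nfkb1, Nfkb2, Relb, Nfkbia, Nfkbiz and Icam1), as it was for 6912 of the 21743 genes tested. Among the 10 it was below that mean in both groups only for Vcam1, as it was for 7254 of the 21743. Icam1 was 1.28-fold in stimulated and 1.42-fold in control samples, and Vcam1 was 0.751-fold and 0.674-fold. Tnfaip3 went opposite ways, at 0.766-fold in stimulated and 1.56-fold in control samples. The summed macrophage and leukocyte markers were, like Tnfaip3, lowest in replicate 2 among stimulated samples (164408 against 250732 and 217468 in replicates 1 and 3), and in control samples they were at 195524, 184757 and 112630. By limma 0 of those 19 markers were called between groups (1 at an unadjusted p under 0.05), against 13.4% of all genes tested. With the replicate block limma called 2 of the 19 higher (7 at an unadjusted p under 0.05), against 14.9% of all genes called higher in that fit. The 20 endothelial markers had a median of 3.56-fold in stimulated and 3.63-fold in control replicate 2. The part of these cells in the values of the 10 genes was not tested.

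**Figure D3:**
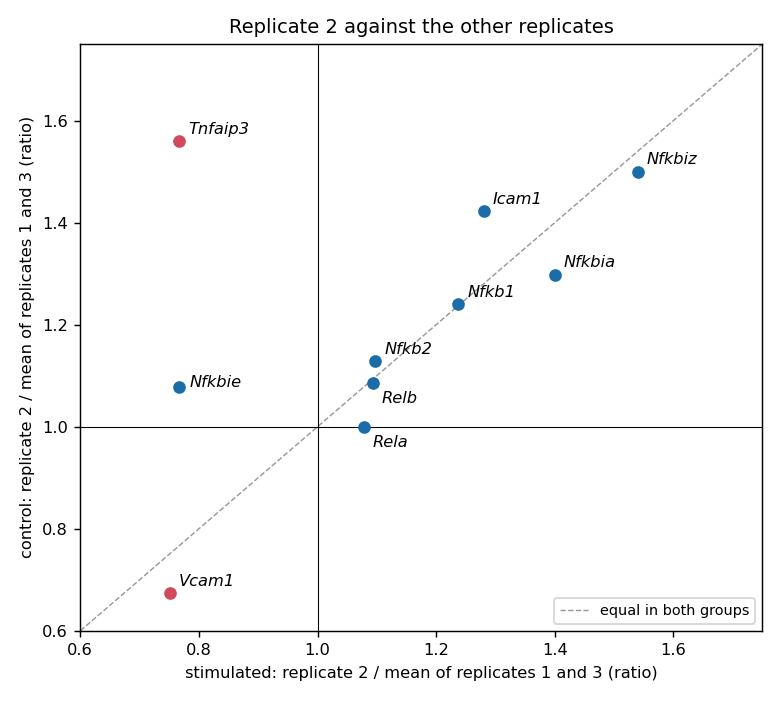
Level of replicate 2 divided by the mean of replicates 1 and 3 (ratios) in stimulated samples (x axis) and control samples (y axis), with 1 point per gene and the line of equal ratios dashed. Nfkb1, Nfkbia, Nfkbiz and Icam1 lie near the line between 1.24 and 1.54, Vcam1 lies low in both groups, and Tnfaip3 lies far from the line at 0.766 and 1.56.

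Levels of different genes were compared per kilobase of exonic length. In stimulated samples the order began with Nfkbia (792 ± 165 normalized counts per kilobase), Rela (730 ± 32.3), Vcam1 (409 ± 72.6) and Nfkb2 (407 ± 23.3), while in control samples it began with Vcam1 (892 ± 190), Rela (775 ± 29.6), Nfkbia (590 ± 95.7) and Nfkb2 (358 ± 26.4). Differences between neighbours were within 1 SD for Nfkbia and Rela and for Vcam1 and Nfkb2 in stimulated samples, for Vcam1 and Rela, Icam1 and Nfkb1, and Nfkb1 and Relb in control samples, and for Relb and Nfkbiz in both groups. Icam1 followed in both groups at 273 ± 40.9 and 227 ± 55.5. Then came Nfkb1, Relb and Nfkbiz, between 138 and 208 in stimulated and between 153 and 196 in control samples. The lowest were Tnfaip3 (94.8 ± 14.6) and Nfkbie (75.1 ± 12.3) in stimulated samples, and Nfkbie (89.8 ± 10.4) and Tnfaip3 (48.8 ± 13.6) in control samples. Tnfaip3 and Nfkbie thus stood in the opposite order in the groups.

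The genes whose profile over the 6 libraries was most like that of Vcam1 were Zfp53, Trim2 and Efna4, at root mean square differences of 0.05, 0.07 and 0.08 on the log2 scale after each gene's own mean was removed, among 12279 protein-coding genes. For Nfkbia the nearest were Zfp609, Zfp598 and Kif21b (0.05 to 0.06), and for Icam1 they were Gng11, Tmem136 and Heph (0.06 to 0.07). The 3 genes near Vcam1 had log2 changes of -1.15 to -1.05, which follows from choosing them by profile.

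The rest of the pathway was read from 10 lists. For scale, limma called 8.61% of all genes higher and 4.75% lower as deposited, and 14.9% and 12% with the replicate block. With equal library totals 1135 of all genes were higher and 2265 lower, and with the block as well 2042 were higher and 4916 lower. Of 16 IKK complex genes and kinases, 7 rose, 1 fell and 8 did not pass (median log2 change 0.27). Among them were Ripk2, a kinase below the NOD receptors (942 ± 60.1 in stimulated and 552 ± 51.1 in control samples, 0.77 ± 0.11), Tank, an adaptor of IKK-related kinases (0.57 ± 0.08), and Map3k14, the kinase that drives the non-canonical pathway (737 ± 60.6 against 448 ± 32.9, 0.72 ± 0.11). Their limma adjusted p-values were 0.00637, 0.00653 and 0.00855. The rises also included Chuk, the IKK-alpha gene, at 0.59 ± 0.12, and the fall was that of Ikbke at -0.85 ± 0.17; these calls were lost in 7 and 5 of the 17 alternatives. Ikbkb, the IKK-beta gene, had a change of 0.24 (limma adjusted p = 0.136). Chuk, Ikbke and Ikbkb were chosen after their values were seen. Without stimulated replicate 3 the list kept 2 calls, both higher; with the replicate block 11 were higher and 1 lower, with equal library totals 3 and 1, and with both settings 6 and 3.

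Of 11 further subunits, inhibitors and IkB-like genes, 2 rose and 9 did not pass (median 0.02). These were Nkrf, which encodes a repressor of NF-kappaB targets (312 ± 13.5 in stimulated and 186 ± 6.08 in control samples, 0.74 ± 0.12, limma adjusted p = 0.0089), and Rel, the c-Rel subunit gene (479 ± 56.6 against 315 ± 45.2, 0.61 ± 0.15, limma adjusted p = 0.0435). The Rel call was lost with upper-quartile factors, with equal library totals and in 5 of the 7 fits without some library (limma adjusted p up to 0.163). With equal library totals 1 of the 11 was higher, and with the replicate block added 2 were higher and 3 lower. Of 15 deubiquitinases and feedback inhibitors, 4 rose and 11 did not pass (median 0.06), among them Zc3h12a, which encodes an RNase that degrades inflammatory mRNAs (0.73 ± 0.12), Usp7 (0.47 ± 0.07) and Tax1bp1, a partner of the Tnfaip3 protein (0.33 ± 0.08). The Tax1bp1 call was lost in 10 of the 17 alternatives, all 7 fits without some library among them (limma adjusted p up to 0.195). Of these 15 genes, 5 were higher and 2 lower with the replicate block, 2 and 2 with equal library totals, and 3 and 4 with both. Without stimulated replicate 3, limma called 0 genes of the further subunits and of the deubiquitinases, with 3 and 6 at an unadjusted p under 0.05.

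Of 26 adaptors and ubiquitin ligases, 4 rose and 22 did not pass (median -0.09). Irak2, a kinase-like adaptor of the interleukin-1 and Toll-like receptors, was at 2609 ± 205 in stimulated and 928 ± 103 in control samples (1.49 ± 0.11, limma adjusted p = 0.000878), and Traf3, which holds the non-canonical kinase in check, and Tollip, a Toll-interacting adaptor, rose by 0.69 ± 0.08 and 0.53 ± 0.08. With the replicate block 7 of the 26 were higher and 3 lower, against 14.9% and 12% of all genes. With equal library totals as well 6 were higher and 10 lower, in a fit where 4916 of the 6958 genes called were lower. Of 25 upstream receptors, 3 rose and 1 fell (median -0.16): Tnfrsf12a, the TWEAK receptor gene, rose to 6303 ± 377 in stimulated samples, against 2095 ± 232 in control samples (1.59 ± 0.10, limma adjusted p = 0.000472), and Tlr2 rose by 0.79 ± 0.13, while Tnfrsf1a, the main TNF receptor gene, was at 3833 ± 176 against 5462 ± 419 (-0.51 ± 0.09, limma adjusted p = 0.0115). For the receptors, as over all genes, the balance of directions turned with scaling. Of the 25, 6 were higher and 4 lower with the replicate block, 2 and 3 with equal library totals, and 5 and 9 with both. Of 11 ligands tested, Il33 alone was called, at -0.92 ± 0.16 (230 ± 21.1 in stimulated and 439 ± 75.0 in control samples, limma adjusted p = 0.0132), with 1 higher and 2 lower with the replicate block and 2 lower with equal library totals.

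Other known targets moved in both directions. Of 17 cytokine and chemokine targets tested, 4 rose (Il6, Lif, Csf1 and Cx3cl1, by 3.86, 3.15, 1.91 and 1.06) and 2 fell, the monocyte attractants Ccl2 (949 ± 113 in stimulated and 2754 ± 978 in control samples, -1.47 ± 0.27) and Ccl7 (-1.44 ± 0.23); Cx3cl1, Ccl2 and Ccl7 were chosen after their values were seen. Of 20 intracellular and protease targets, 6 rose and 1 fell (median 0.41), led by the prostaglandin synthase gene Ptgs2 (2.22 ± 0.21), Junb (1.46 ± 0.16) and the survival gene Ier3 (1.62 ± 0.21). With the replicate block 8 of these 20 were higher and 4 lower, and with equal library totals as well 6 were higher and 5 lower. Of 19 other adhesion molecules of the vessel wall tested, 3 rose and 16 did not pass (median -0.04). Ncam1 was at 3996 ± 508 in stimulated and 1736 ± 79.8 in control samples, the hyaluronan receptor gene Cd44 at 15625 ± 211 against 8253 ± 802, and the cadherin gene Cdh11 at 14067 ± 2811 against 8375 ± 1131, a call lost in 6 of the 17 alternatives. Of the 19 genes, 6 were higher and 4 lower with the replicate block, 2 and 2 with equal library totals, and 4 and 7 with both. Sele, the E-selectin gene and another NF-kappaB target, was at 38 or less in every library and was not called (limma adjusted p = 0.157).

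Of the 8 integrin chains that bind ICAM-1, VCAM-1 or related ligands, 3 rose: Itgb1 (0.68 ± 0.10), Itga9 (1.01 ± 0.19) and Itgal, a leukocyte chain (577 ± 86.2 in stimulated and 228 ± 90.8 in control samples, 1.41 ± 0.31, limma adjusted p = 0.0286). Sele and Itga4 were chosen after their values were seen. Itga4, the chain that pairs with Itgb1 to bind VCAM-1, was at 672, 481 and 651 in stimulated samples, against 661, 675 and 541 in control samples (-0.07, limma adjusted p = 0.834). Without stimulated replicate 3, limma called 0 of the 8 (3 at an unadjusted p under 0.05). Over the 10 lists, 42 genes were called, 18 of them under every alternative and 24 lost under some, and no direction turned. Without stimulated replicate 3, the library with the most estimated reads, the calls of Map3k14, Tlr2, Tnfrsf1a, Il33, Ccl2, Ccl7 and Cdh11 were among those lost. Itga9, Tnfrsf1a and Ccl2 were also lost without control replicate 1 or control replicate 3, Tlr2 and Il33 without control replicate 3, and Itgal without stimulated replicate 1, stimulated replicate 2 or control replicate 1, at limma adjusted p-values up to 0.114. The highest median was that of the intracellular targets. The lists' shares of calls can be read against those of all genes in the same fit. These were 13.4% as deposited, 26.8% with the replicate block, 15.7% with equal library totals and 32% with both.

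**Figure D4:**
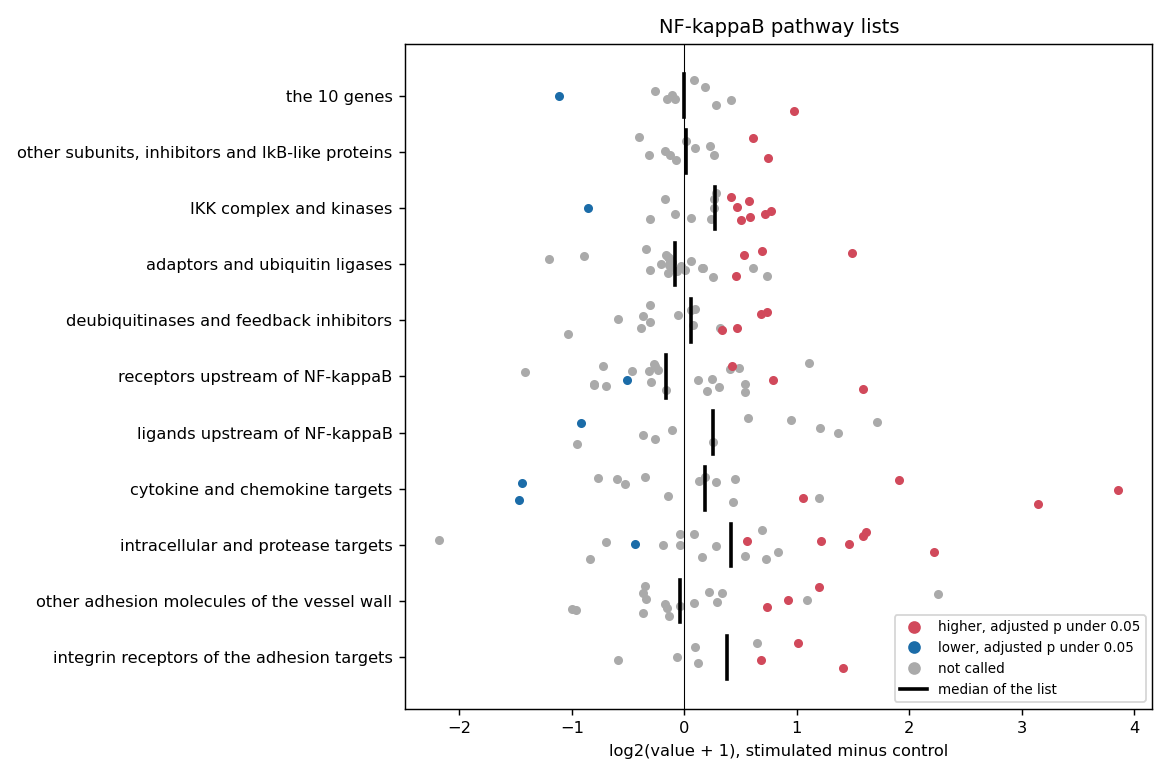
Log2 changes (x axis, stimulated minus control on the log2(value + 1) scale) of the 10 genes and of 10 further lists of the pathway, with 1 point per gene, black bars at list medians, red for genes called higher and blue for genes called lower by limma. The median of the 10 genes is near 0 with Vcam1 and Tnfaip3 at its ends, and the called genes beyond 1.9 belong to the cytokine and intracellular targets.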

How the data were processed

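The series holds 1 table with a column for each of 3 stimulated and 3 control samples. The submitters' processing notes name, for making the deposited values, featureCounts 1.6.3, STAR 2.6.1d, DESeq2 1.18.1, Trimmomatic 0.38 and FastQC, and mm10 is among the builds named. The sources used here give neither annotation release nor strand setting. The deposited values are a score per gene: whole numbers that skip or double at regular steps, as read counts scaled by 1 factor per library and rounded would. The factors were estimated from these steps, giving 23300000 to 54400000 reads. Counts were not recovered, so no count model was used.

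The test was limma 3.58.1 (R 4.3.3, trend option) on log2(value + 1), a scale that shrinks changes of low genes. Treatment was the only term, genes needed a mean of 1 or more over the 6 libraries, and p-values were adjusted by Benjamini-Hochberg with calls at 0.05. Symbols, positions and exonic lengths came from GENCODE M21 (mm10), which matched 21747 of 21785 rows. Members and lists were chosen with earlier results of these data known. The rule named all members, up to 3 called genes with the smallest p per pathway list (or 1 if none was called), and the 3 nearest profiles of Nfkbia, Icam1 and Vcam1; Chuk, Ikbke, Ikbkb, Cx3cl1, Ccl2, Ccl7, Sele and Itga4 were added after their values were seen. Tnfsf14, Cd40lg, Ccl20, Il12b, Icam4 and Cd99 are not analysed here.

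Both groups share replicate numbers in the labels. Over 13185 genes, the correlation of deviations between libraries with 1 number was 0.747, 0.741 and 0.218. The labels do not say that a number marks a pair, and the match was weak for number 3: control replicate 3 correlated more with stimulated replicate 1, at 0.287. The replicate block was therefore kept as an alternative. The alternatives were other scalings, pseudocounts of 0.1 and 10, other filters, a replicate block, and leaving out libraries.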

Additional observations from a re-analysis of the deposited data

How the results depend on the processing

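Of 17 alternatives, 11 left the count of called genes among the 10 within 1.5 times of 2. With equal library totals 1 was called (0 higher), and 1135 of all genes were higher and 2265 lower. With the replicate block 2 of the 10 were higher and 1 lower, and over all genes 5837 were called (3232 higher, 2605 lower). With equal library totals and the replicate block, 5 of the 10 were called, 4 of them lower (Rela, Relb, Nfkbiz and Vcam1) and Tnfaip3 higher, and 6958 of all genes, 4916 of them lower. Leaving out each library in turn gave 0 to 2 calls among the 10 (0 to 1 higher and 0 to 1 lower) and 917 to 2384 over all genes (659 to 1583 higher, 258 to 801 lower); the 0 arose by limma without stimulated replicate 3, control replicate 1 or control replicate 3, with 2 of the 10 at an unadjusted p under 0.05 in each. Signs turned only for genes that were not called as deposited: Nfkb1 was at -0.084 with equal totals, with or without the block, and between -0.013 and 0.19 without single libraries, and Nfkbiz was between -0.36 and 0.044 without single libraries. Equal totals and upper-quartile factors moved the median of all genes to -0.20 and -0.11. Added to the values as deposited, the replicate block changed the call of Nfkbia alone among the 10 genes. Added to equal library totals, it brought the calls of Rela, Relb, Nfkbiz and Tnfaip3. Why library totals differed between the groups, and why the replicate block changed calls, was not tested.

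With 3 samples a group, exact tests of single values cannot go below p = 0.1. What depth limits for the 8 genes that were not called was not tested.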
